A study of Mus musculus with 16 samples.

Results

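The genes described here are 30 genes of cholesterol and fatty acid synthesis, read in mouse dendritic cells with and without the bacterium Lactobacillus acidophilus NCFM. They were picked by gene name for their role in these pathways and are 30 of the 18193 genes that the array's probe table names singly. The set holds 6 enzymes of the mevalonate steps, 11 enzymes of the squalene and sterol steps, 5 regulators of the SREBP system, the sterol carrier Stard4 and 7 lipogenic enzymes. Dendritic cells were grown from bone marrow of C57BL/6 wild-type mice for 8 days in medium with GM-CSF at 15 ng/ml, and the floating immature cells were used. NCFM cells received the bacteria at 10 µg/ml and control cells did not, and both were held in medium with 10 ng/ml GM-CSF. RNA was taken after 4, 10 or 18 h and hybridised to 16 one-colour arrays. NCFM was read on 3 arrays at each time, and control on 3 arrays at 4 h and 2 arrays at 10 h and at 18 h. The labels do not give the age or sex of the mice, nor whether replicates came from separate animals or cultures. The p-values therefore measure the spread between these samples. In every group the sex-linked genes Xist and Eif2s3y, given below, set an array apart from the rest as cells of another sex. The spread within groups thus includes a difference between cells of different sex, and the rest of it may be technical.

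Cholesterol is built from acetyl-CoA through mevalonate, the isoprenoid farnesyl diphosphate, squalene and lanosterol, and fatty acids are built from the same acetyl-CoA through malonyl-CoA. Both routes are switched on by the SREBP transcription factors. When sterol in the endoplasmic reticulum is low, the escort protein Scap carries SREBP to the Golgi, where it is cut and released to the nucleus, and when sterol is high, Insig proteins hold Scap and SREBP back. SREBP binds sterol regulatory elements and E-boxes, usually beside a CCAAT box that binds NF-Y, and in immune cells oxysterols made after microbial signals are known to act on the same switch.

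The promoter letters are shown because the genes share one regulator by textbook knowledge. Windows from 250 bases before to 50 bases after the annotated start, from RefSeq on GRCm38.p6, were held for 24 of the 30 genes, in 32 windows, and both strands were searched. Fdps, Fdft1, Sqle, Stard4, Scd1 and Scd2 had no window in the table. The NF-Y box, CCAAT or ATTGG, lay in 21 of the 24 genes and in 68.8% of their windows, against 37.4% of all 32851 windows. The E-box CACGTG lay in 5 genes (Hsd17b7, Sc5d, Dhcr7, Insig1 and Scap) and in 18.8% of their windows, against 7.15% of all windows. The sterol regulatory element TCACNCCAC lay only in the window of Hmgcs1, 3.12% of the windows against 1.24% of all. Of 44 NF-Y matches, 38 lay in the 200 bases before the start. Those bases are most of each window, and the position was not counted over all windows. Matches of different motifs overlapped in 0 cases, and a match is a description of the letters, not a measured binding site.

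Stretches of 250 bases that end at the base before the start are given for 5 genes, each on the gene's own strand, with matches to these motifs in capitals. They were picked as an early enzyme, a pair of late enzymes and a pair of regulators. Hmgcs1 (chr13:119690101-119690350, plus strand) holds the sterol regulatory element at -137 to -129 from the start and 3 NF-Y boxes. Cyp51 (chr5:4104698-4104947, minus strand) holds 1 NF-Y box close to the start. Sc5d (chr9:42264301-42264550, minus strand) holds an E-box at -98 to -93 and an NF-Y box. Insig1 (chr5:28071162-28071411, plus strand) holds an E-box at -101 to -96 and an NF-Y box. Srebf2 (chr15:82147019-82147268, plus strand) holds 1 NF-Y box.
Hmgcs1: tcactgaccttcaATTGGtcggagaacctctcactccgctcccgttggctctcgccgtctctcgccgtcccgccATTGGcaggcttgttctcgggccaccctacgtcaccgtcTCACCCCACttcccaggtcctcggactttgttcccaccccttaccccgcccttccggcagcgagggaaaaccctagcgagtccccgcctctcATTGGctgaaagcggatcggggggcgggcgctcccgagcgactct
Cyp51: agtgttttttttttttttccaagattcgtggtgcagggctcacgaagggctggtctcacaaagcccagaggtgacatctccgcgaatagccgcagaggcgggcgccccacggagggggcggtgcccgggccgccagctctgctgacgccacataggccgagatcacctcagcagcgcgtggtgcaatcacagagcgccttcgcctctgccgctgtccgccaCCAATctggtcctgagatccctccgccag
Sc5d: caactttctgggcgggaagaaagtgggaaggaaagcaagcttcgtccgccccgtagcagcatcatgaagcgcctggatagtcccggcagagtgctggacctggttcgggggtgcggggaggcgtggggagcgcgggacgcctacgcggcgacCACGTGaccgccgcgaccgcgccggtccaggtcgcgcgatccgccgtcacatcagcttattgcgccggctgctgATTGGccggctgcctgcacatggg
Insig1: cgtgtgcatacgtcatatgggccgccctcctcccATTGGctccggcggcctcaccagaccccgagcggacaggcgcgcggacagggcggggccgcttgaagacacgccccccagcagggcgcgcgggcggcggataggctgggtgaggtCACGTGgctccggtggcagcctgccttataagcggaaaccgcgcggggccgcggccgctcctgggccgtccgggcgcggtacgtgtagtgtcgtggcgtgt
Srebf2: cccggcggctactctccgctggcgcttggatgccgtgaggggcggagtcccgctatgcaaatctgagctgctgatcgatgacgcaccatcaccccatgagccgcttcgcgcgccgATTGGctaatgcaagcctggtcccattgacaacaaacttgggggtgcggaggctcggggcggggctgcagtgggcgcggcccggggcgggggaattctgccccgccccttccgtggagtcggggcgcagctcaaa

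**Figure D1:**
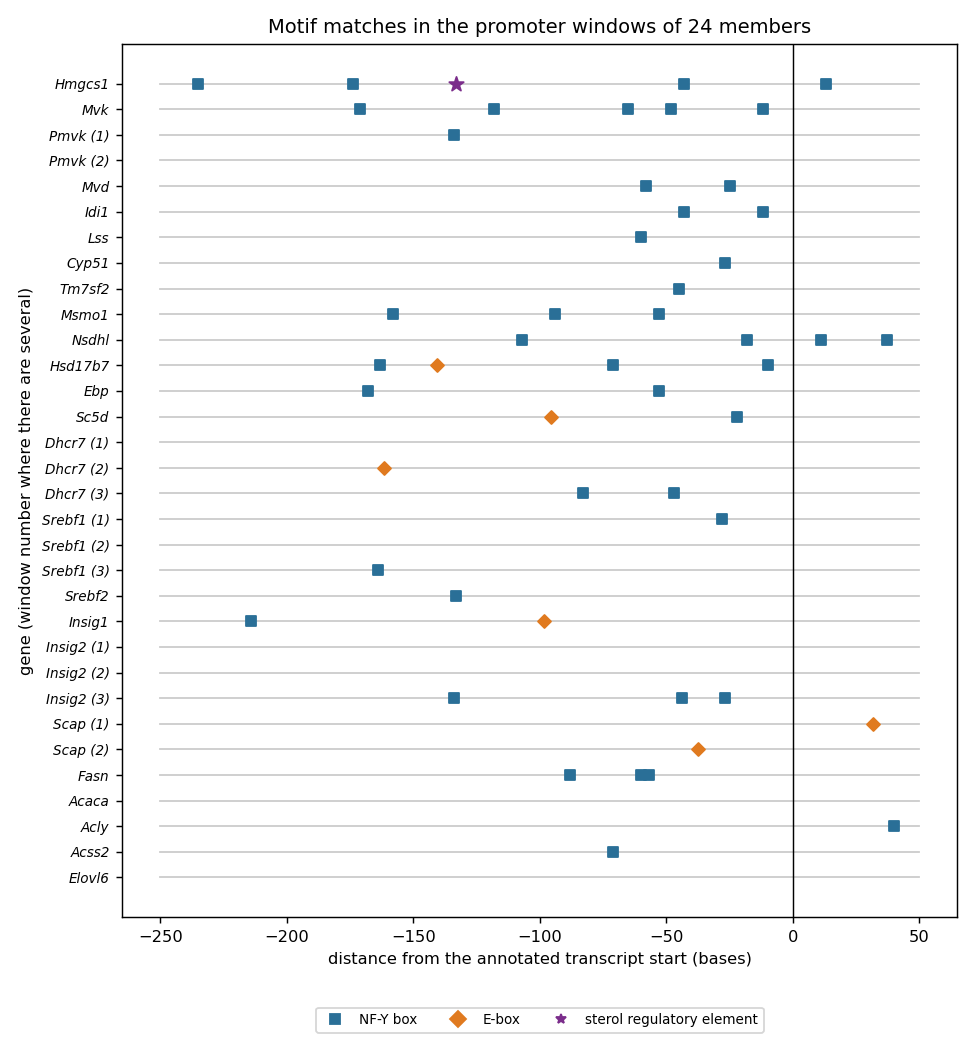
Each line is one RefSeq promoter window of a gene, the x axis is the distance in bases from the annotated start, and the symbols mark matches to the NF-Y box, the E-box and the sterol regulatory element. NF-Y boxes lie in 21 of the 24 genes, and 38 of their 44 matches are in the 200 bases before the start, which are most of each window.

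Array medians lay between 162 and 167 intensity units, and the values ran from 42 to 31573, so the deposited values had already been brought to a common scale. Of 8 dendritic cell markers, 7 lay above the array median on every array, and Cd209a did not. Macrophage markers (6 of 6) and 5 to 7 of 7 measured neutrophil markers were also above it, while at most 2 markers of B, T, NK, stromal, erythroid or mast cells were. The summed intensity of the 7 neutrophil markers was 12913 to 34015 in NCFM cells and 39041 to 47401 in control cells at 10 h, and 5556 to 16953 against 22751 to 25519 at 18 h, while at 4 h the ranges of 7730 to 35702 and 28390 to 40892 overlapped. Of the 7 neutrophil markers, 0, 2 and 1 were called lower in NCFM cells at the 3 times in the limma fit, with median log2 changes of -0.56, -0.92 and -1.0, against 13.1%, 16.5% and 16.3% of all genes called lower. The called ones were Ltf at 10 h and 18 h and Elane at 10 h. S100a8 and S100a9, among the brightest of the 7, were not called at any time, and Mpo and Elane changed by 0.48 and 0.24 at 4 h, not called. The summed intensity of the 8 dendritic cell markers overlapped at 4 h (56101 to 62965 in NCFM cells, 56037 to 58086 in control cells) and was lower in NCFM cells later, at 49435 to 52169 against 52335 to 55215 at 10 h and 47861 to 51868 against 57924 to 60431 at 18 h. That of the 6 macrophage markers overlapped at every time, with median log2 changes of 0.21, 0.57 and 0.38. Of these 6, 1, 2 and 1 were called higher and 0 lower, against 5.27%, 8.21% and 7.4% of all genes called higher. They were Fcgr1 at each time (1.06, 1.57 and 1.40) and Mertk at 10 h (1.11). Of the 8 dendritic cell markers, 0, 1 and 3 were called lower and 0 higher, beside the shares lower given above. They were Itgax at 10 h and 18 h (-0.61 and -0.81) and Cd74 and Ciita at 18 h. The part of these cells in the changes of the 30 genes was not tested, and in such bulk RNA fewer cells of a type and less RNA per cell cannot be told apart. On the arrays numbered 1, Xist was lower by a mean log2 difference of -4.32 and the Y-linked Eif2s3y higher by 3.89 than on the other arrays, in all 6 groups. Both are sex-linked, so within every group arrays numbered 1 read as cells of another sex than the others. The main fit had no term for this. Arrays numbered 1 were 1 of 3 NCFM arrays at each time, but 1 of 2 control arrays at 10 h and at 18 h. A difference between array numbers therefore enters the log2 changes at those times. With a term for the replicate number, Acss2 at 18 h moved from 1.19 to 1.06 and Insig1 at 10 h from -0.61 to -0.66. Of the 30 genes, Insig1 (-0.35) and Acss2 (-0.93) lay to one side on the arrays numbered 1 in all 6 groups, against 3350 of all 18193 genes.

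After seeing the data, NCFM 4 h replicate 3 and control 18 h replicate 2 were doubted and left out as a check. The sterol enzymes had a median log2 deviation from their group mean of 0.23 on NCFM 4 h replicate 3 and -0.21 on replicate 1. In control cells at 18 h it was 0.20 on replicate 1 and -0.20 on replicate 2. Deviations of 2 arrays from their mean mirror each other, so these values do not tell which control array is the odd one. Without NCFM 4 h replicate 3, Msmo1 was also called lower at 4 h (-0.65, adjusted p = 0.0355) and Srebf1 was not called. Without control 18 h replicate 2, whose spread enters the common fit, Lss, Tm7sf2 and Stard4 were also called lower at 4 h (adjusted p = 0.0376, 0.0260 and 0.00656), and at 18 h Stard4 was gained and Msmo1 lost. With both left out, Lss, Msmo1 and Stard4 were gained at 4 h and Srebf1 lost, Stard4 was gained at 18 h, and the calls at 10 h were the same 22 genes.

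NCFM cells read lower than control cells for most of these genes, mainly from 10 h on. A gene was called at an adjusted p under 0.05 in limma over all genes. At 4 h, 7 of 30 genes were called lower and 0 higher, against 13.1% and 5.27% of all genes, with 13 lower and 2 higher at an unadjusted p under 0.05. At 10 h, 22 were called lower and 0 higher (16.5% and 8.21% of all genes), with 24 lower and 0 higher at an unadjusted p under 0.05. At 18 h, 19 were called lower and 1 higher (16.3% and 7.4% of all genes), with 21 and 2 at an unadjusted p under 0.05. The count at 4 h lay closer to the background share than the counts at 10 h and 18 h did. With both doubted arrays left out, the counts called lower were 9, 22 and 20.

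The median log2 change of the 30 genes was -0.26 at 4 h, -0.92 at 10 h and -0.77 at 18 h, where the median of all genes was -0.01, 0.01 and 0.00. At 10 h, 5.23% of all genes had a change at or below the median of the 30, and at 4 h and 18 h the shares were 23.6% and 7.9%. Every NCFM array read below every control array for 13, 27 and 24 of the 30 genes at 4, 10 and 18 h, against 22.7%, 28.9% and 26.1% of all genes. The reverse held for 2, 0 and 1 genes, against 13.8%, 23.2% and 21.1% of all genes.

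**Figure D2:**
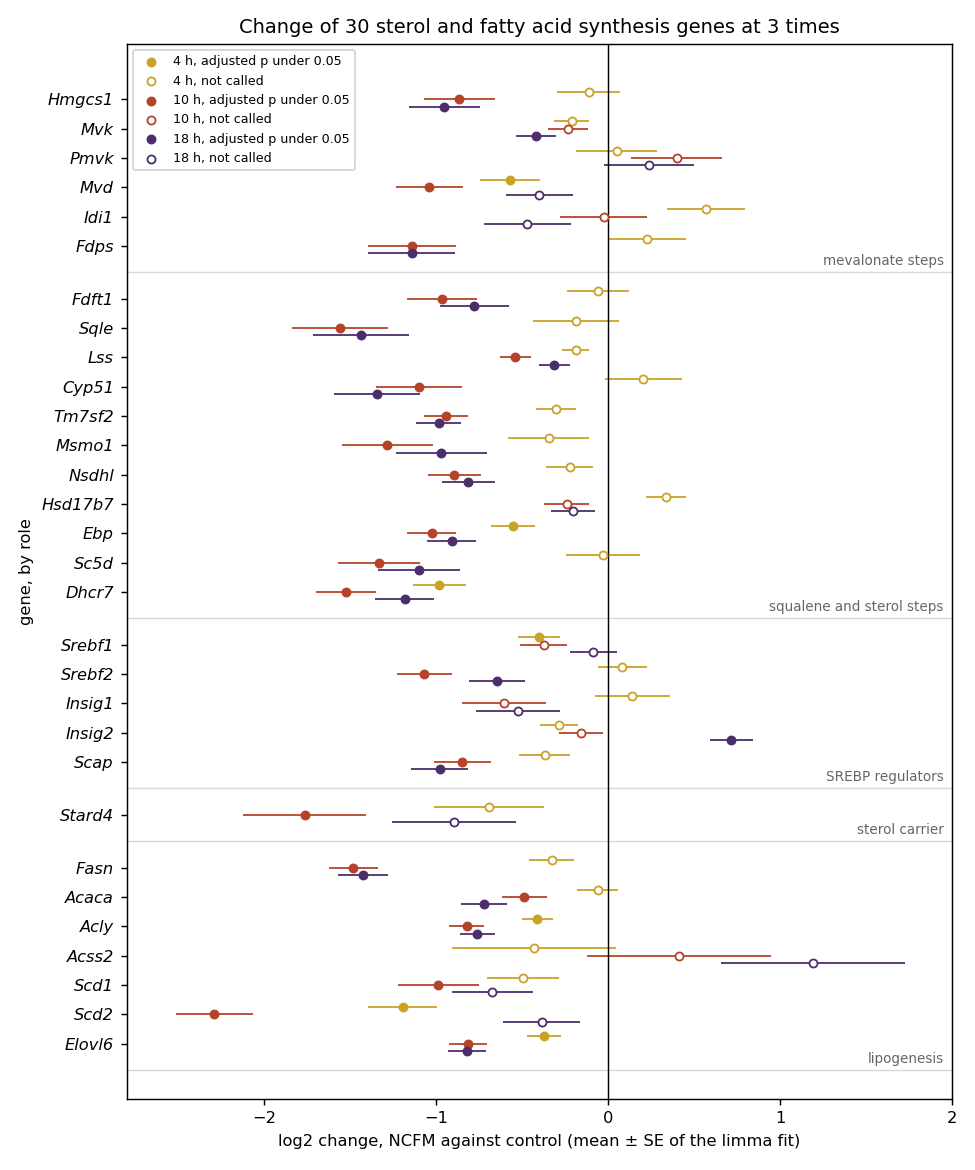
Log2 change of each gene in NCFM cells against control cells at 4, 10 and 18 h, as the mean and SE of the limma fit over 3 NCFM and 2 or 3 control arrays, with filled points at an adjusted p under 0.05 and open points otherwise. Most points at 10 h and 18 h lie left of 0, and Insig2 at 18 h is the only filled point to the right.

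Both 10 h and 18 h were called lower for 18 genes, a pattern that 11.8% of all genes shared. Lower at all 3 times were Ebp, Dhcr7, Acly and Elovl6, and 6.76% of all genes were. Of the 30 genes, 16 were called lower at 10 h and not at 4 h. The share of all genes with that pattern was not counted, and the pattern is no test of a difference between times. The test of the difference itself called 2 of the 30 genes from 4 h to 10 h, against 0.506% of all genes. Pmvk, Idi1, Hsd17b7, Insig1 and Acss2 were called at none of the times. The counts moved with scaling: with arrays centred on spike-in probe sets, the median change of all genes moved to 0.19 at 4 h and -0.24 at 10 h, and then 2 genes were called lower and 2 higher at 4 h and 27 lower at 10 h. The same choice moved all genes called from 2376 lower and 959 higher to 738 lower and 3312 higher at 4 h, and from 2995 lower and 1493 higher to 6185 lower and 647 higher at 10 h. Median centring gave 1774 lower and 2406 higher over all genes at 4 h, 2506 and 3820 at 10 h, and 2471 and 3347 at 18 h, and of the 30 genes 4, 22 and 18 lower. Quantile normalization gave 1627 lower and 1173 higher over all genes at 4 h, 2174 and 2166 at 10 h, and 2186 and 2069 at 18 h, and of the 30 genes 5, 21 and 15 lower.

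**Figure D3:**
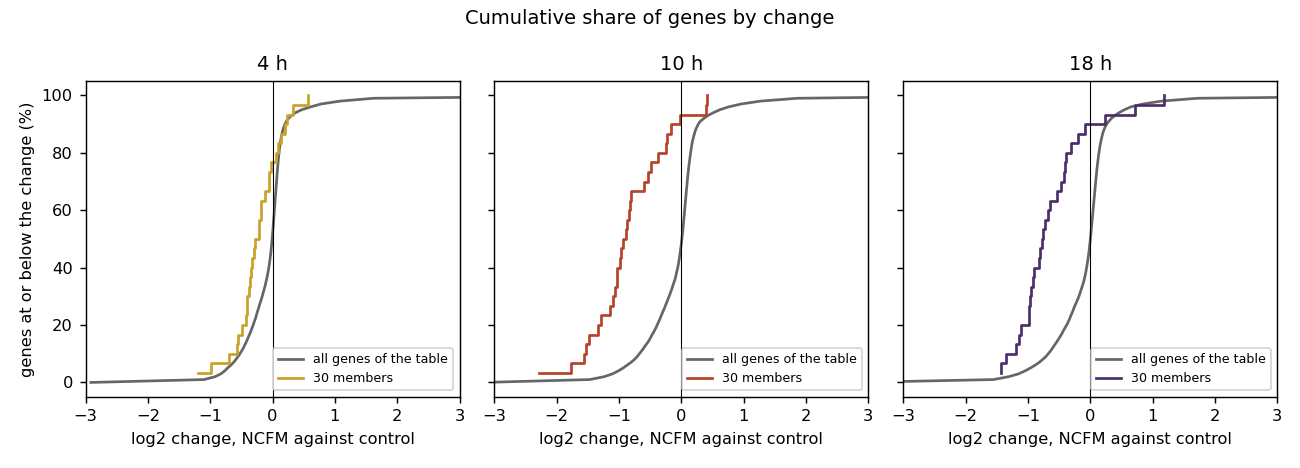
Cumulative share of genes, in percent, at or below each log2 change of NCFM against control at 4, 10 and 18 h, for all genes (grey) and for the 30 genes (colour). The curve of the 30 genes is shifted left at 10 h and 18 h, with medians of -0.92 and -0.77, and less at 4 h, with a median of -0.26.

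Among the 6 genes of the mevalonate steps, 1, 3 and 3 were called lower at 4, 10 and 18 h, and 0 were called higher. The shares of all genes called lower were 13.1%, 16.5% and 16.3%. Hmgcs1, which joins acetyl-CoA and acetoacetyl-CoA into HMG-CoA, read 3684, 4617 and 4039 in control cells at 4 h and 2906, 3731 and 4999 in NCFM cells. These groups overlapped, and the highest NCFM array was replicate 3. At 10 h Hmgcs1 read 3307 and 3908 in control cells and 2277, 1846 and 1828 in NCFM cells, and at 18 h 3793 and 3001 against 1550, 1666 and 2052. The groups did not overlap at either later time, and the log2 changes were -0.87 ± 0.21 (SE, adjusted p = 0.00913) and -0.95 ± 0.21 (adjusted p = 0.00556). The 10 h call was lost without control 10 h replicate 2 and the 18 h call without control 18 h replicate 1. Promoter letters with both the sterol regulatory element and NF-Y boxes were printed for this gene above.

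Fdps, which makes farnesyl diphosphate, was also called lower at both later times, with a wide control pair at 18 h. At 10 h it read 1349 and 1384 in control cells and 672, 583 and 609 in NCFM cells, a 2.2-fold lower level. At 18 h the controls read 1773 and 753 and the NCFM arrays 472, 546 and 556, so that 1 control array lay close to the NCFM arrays and the other far above. The log2 change there was -1.14 ± 0.25 (adjusted p = 0.00643). Leaving out control 18 h replicate 1 gave -0.53, and leaving out replicate 2 gave -1.76. The 18 h call of Fdps was lost under some of the 31 alternatives. At 4 h Fdps changed by 0.23 ± 0.23 and was not called.

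Mvd, the decarboxylase that ends the mevalonate steps proper, was lower early. It read 918, 1087 and 896 in control cells and 559, 661 and 739 in NCFM cells at 4 h, without overlap, a log2 change of -0.57 ± 0.17 (adjusted p = 0.0394). At 10 h it read 956 and 1101 against 548, 558 and 406 (-1.04 ± 0.19, adjusted p = 0.00225). At 18 h the arrays overlapped, at 1229 and 836 against 664, 893 and 764 (-0.40 ± 0.19, adjusted p = 0.164). The 4 h call was lost without any one of the 4 h control arrays, NCFM 4 h replicate 1 or 2 or NCFM 18 h replicate 3, and under quantile normalization, median centring, spike-in centring, background subtraction or arrays 2 and 3 only.

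Mvk, the first kinase after mevalonate, passed the test only at 18 h, where control read 471 and 358 and NCFM 335, 324 and 266 (-0.42 ± 0.12, adjusted p = 0.0199), a call lost without NCFM replicate 3 or control replicate 1. Pmvk, the second kinase, had log2 changes of 0.05, 0.40 and 0.24, with overlapping arrays at each time. Idi1, which interconverts the isoprenoid building blocks, had its highest values in NCFM cells at 4 h. It read 2799, 2986 and 3349 in control cells and 3884, 3631 and 6507 in NCFM cells, so every NCFM array was above every control array. The log2 change was 0.57 ± 0.23 (adjusted p = 0.106), and 0.31 without NCFM 4 h replicate 3. At 10 h and 18 h Idi1 changed by -0.03 ± 0.25 and -0.47 ± 0.25, neither called.

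In the squalene and sterol steps, 2, 10 and 10 of 11 genes were called lower at 4, 10 and 18 h and 0 higher. The shares of all genes called lower were 13.1%, 16.5% and 16.3%. At 10 h and 18 h all 11 had NCFM arrays below every control array, against 28.9% and 26.1% of all genes. The largest fall at 10 h was in Sqle, which makes the squalene epoxide and is a rate-limiting enzyme of the route. Sqle read 1302 and 1001 in control cells and 436, 366 and 366 in NCFM cells at 10 h, a 2.94-fold lower level (log2 change -1.56 ± 0.28, adjusted p = 0.0017). At 18 h it read 1483 and 720 against 437, 381 and 335 (-1.44 ± 0.28, adjusted p = 0.00288). At 4 h the groups overlapped, at 1186, 1004 and 1037 against 773, 825 and 1308, and the highest of all was NCFM replicate 3.

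Cyp51, the demethylase of lanosterol, had no fall at 4 h and a large one later. It read 1033, 1053 and 1031 in control cells at 4 h and 991, 999 and 1734 in NCFM cells, and the log2 change of 0.20 ± 0.22 was -0.06 without the array at 1734. At 10 h it read 928 and 980 against 494, 416 and 428, and at 18 h 1055 and 662 against 417, 278 and 306. The changes were -1.10 ± 0.25 (adjusted p = 0.00685) and -1.35 ± 0.25 (adjusted p = 0.00211), with no overlap at either time. Its second probe set read -1.07 and -1.30 at these times.

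Dhcr7, which takes 7-dehydrocholesterol to cholesterol at the end of the route, was lower at every time and from the start. It read 416, 389 and 442 in control cells and 249, 170 and 219 in NCFM cells at 4 h, then 469 and 449 against 153, 156 and 170 at 10 h, and 401 and 478 against 153, 202 and 232 at 18 h. No NCFM array reached the lowest control array at any time. The log2 changes were -0.98 ± 0.15, -1.52 ± 0.17 and -1.18 ± 0.17 (adjusted p = 0.000953, 7.96e-05 and 0.000452). Ebp, a sterol isomerase earlier in the route, was the other sterol enzyme called at all times, at -0.55 ± 0.13, -1.03 ± 0.14 and -0.91 ± 0.14. It read 1369, 1452 and 1317 against 1078, 930 and 827 at 4 h, and was not called at 4 h with spike-in centring.

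Sc5d, the desaturase that supplies Dhcr7 with its substrate, was at 1239 and 1581 in control cells and 559, 539 and 571 in NCFM cells at 10 h, a 2.52-fold lower level, after overlapping values at 4 h (1248, 1664 and 1618 against 1063, 1371 and 2166). At 18 h it read 1575 and 1352 against 588, 708 and 754 (log2 change -1.10 ± 0.24, adjusted p = 0.00548). Msmo1, which removes the C-4 methyl groups, changed by -1.28 ± 0.26 and -0.97 ± 0.26 at 10 h and 18 h, with NCFM replicate 3 at 2064 again the highest array at 4 h. Nsdhl, of the same demethylation complex, changed by -0.90 ± 0.15 and -0.81 ± 0.15. Tm7sf2, a C-14 sterol reductase, changed by -0.94 ± 0.13 and -0.98 ± 0.13, and its NCFM arrays at 10 h lay tightly at 246, 259 and 256 against 503 and 473. The smallest called change was that of Lss, which closes the sterol rings, at -0.54 ± 0.09 and -0.31 ± 0.09. At 18 h the call of Lss was lost without control replicate 1, NCFM replicate 1 or NCFM replicate 3, that of Msmo1 without either control array or NCFM replicate 1 or 2, and that of Fdft1 without control replicate 1 or NCFM replicate 2.

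Fdft1, the squalene synthase, gave different answers by probe set. Its brightest probe set read 798 and 925 in control cells and 490, 437 and 395 in NCFM cells at 10 h, and changed by -0.97 ± 0.20 and -0.78 ± 0.20 at 10 h and 18 h. A second bright probe set gave -1.09 and -0.80, while 2 dim probe sets gave 0.25 and 0.08 at 10 h, and 0.18 and 0.32 at 4 h. Hsd17b7, the ketoreductase of the C-4 steps, was the only one of the 11 not called at 10 h or 18 h. Its brightest probe set, used here, gave -0.24 ± 0.13 and -0.20 ± 0.13. At 4 h it read 368, 363 and 392 in control cells and 409, 448 and 574 in NCFM cells, all higher, a log2 change of 0.34 ± 0.12 (adjusted p = 0.0659). This difference was called with the replicate block (adjusted p = 0.0331), and with median centring, quantile normalization, spike-in centring or array weights. It was 0.19 without NCFM 4 h replicate 3 and not called. Other probe sets of Hsd17b7 differed at the later times. One read 264 and 250 in control cells and 182, 174 and 186 in NCFM cells at 10 h. At 18 h that probe set read 267 and 200 against 172, 148 and 172, again without overlap. Another read 296 and 308 against 231, 249 and 231 at 10 h, and 307 and 217 against 222, 229 and 210 at 18 h, with overlap. A dim one was slightly higher in NCFM cells, at 120 and 121 against 129, 123 and 131 at 10 h.

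**Figure D4:**
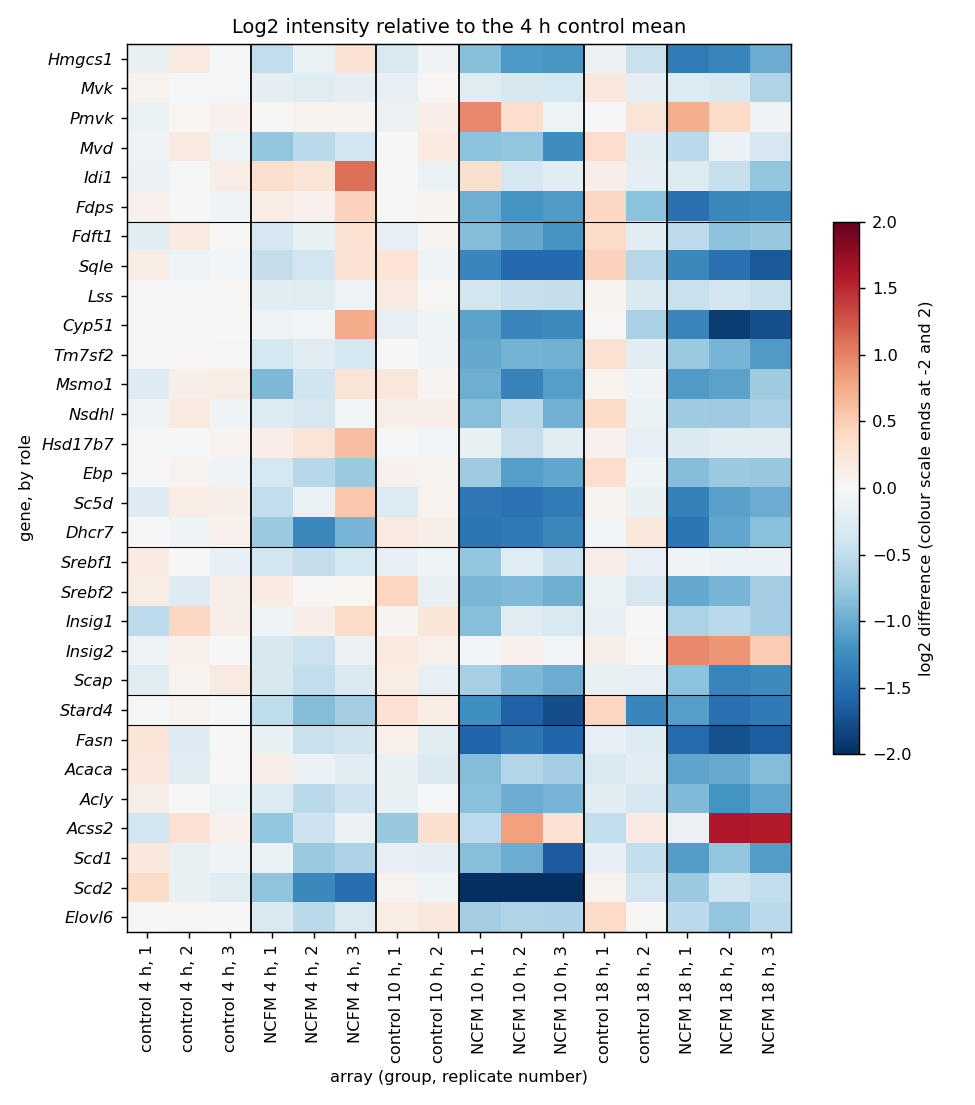
Log2 intensity of the 30 genes (lines, by role) on each of the 16 arrays (columns, by group and replicate number), relative to the mean of the 4 h control arrays, with the colour scale ending at -2 and 2. The NCFM arrays at 10 h and 18 h are mostly blue, NCFM 4 h replicate 3 is redder than its fellows for Cyp51, Idi1 and Sc5d, and control 18 h replicate 2 is bluer than replicate 1 for Fdps and Stard4.

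Of the 5 regulators, 1, 2 and 2 were called lower at 4, 10 and 18 h, and 1 was called higher at 18 h. The shares of all genes called lower were 13.1%, 16.5% and 16.3%, and 7.4% were called higher at 18 h. Srebf2, which codes for the SREBP that mainly drives cholesterol genes, read 803, 612 and 786 in control cells and 819, 744 and 751 in NCFM cells at 4 h, with a change of 0.08 ± 0.14. At 10 h it read 982 and 660 against 385, 397 and 369, and at 18 h 667 and 576 against 360, 383 and 450. These groups were apart at both times, with log2 changes of -1.07 ± 0.16 (adjusted p = 0.000539) and -0.65 ± 0.16 (adjusted p = 0.0119). The 18 h call was lost without control 18 h replicate 1. Srebf1, whose products mainly drive fatty acid genes, was called only at 4 h, at 1453, 1301 and 1150 against 996, 931 and 1011 (-0.40 ± 0.12, adjusted p = 0.0379). That call was lost without any one of the NCFM 4 h arrays, control 4 h replicate 1 or 2, NCFM 10 h replicate 3 or NCFM 18 h replicate 2 or 3. Its changes at 10 h and 18 h were -0.38 ± 0.14 and -0.09 ± 0.14, neither called.

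Scap, the SREBP escort, fell at the late times, from 698 and 559 in control cells to 395, 337 and 314 in NCFM cells at 10 h (-0.85 ± 0.17, adjusted p = 0.00293) and from 565 and 560 to 355, 251 and 261 at 18 h (-0.98 ± 0.17, adjusted p = 0.00121). The 10 h call was lost without control 10 h replicate 1. Both Insig genes code for proteins that hold Scap back, but their values went apart at 18 h. Insig1, itself a well-known SREBP target, read 875 and 991 against 467, 724 and 677 at 10 h, and 746 and 831 against 542, 577 and 524 at 18 h, without overlap. The log2 changes of -0.61 ± 0.24 (adjusted p = 0.092) and -0.52 ± 0.24 (adjusted p = 0.147) were not called, but were with the replicate block (-0.66, adjusted p = 0.0151, and -0.58, adjusted p = 0.0284). At 4 h its control arrays ranged from 582 to 1114 around the NCFM arrays.

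Insig2 was the single gene of the 30 called higher. It read 579 and 539 in control cells and 1035, 983 and 759 in NCFM cells at 18 h, a 1.64-fold higher level (log2 change 0.72 ± 0.13, adjusted p = 0.00148). At 4 h it read 493, 573 and 531 against 426, 396 and 489, and at 10 h 610 and 572 against 513, 562 and 514, both lower without being called (-0.29 ± 0.11 and -0.16 ± 0.13). The rise at 18 h was called on the brightest of its 3 probe sets, and the others gave 0.29 and 0.36, not called.

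Stard4, a soluble carrier that moves cholesterol between membranes, had the largest fall of these genes at 10 h after Scd2. It read 1017 and 926 in control cells and 356, 270 and 242 in NCFM cells, a 3.4-fold lower level (log2 change -1.77 ± 0.36, adjusted p = 0.00374). At 4 h it read 809, 877 and 811 against 584, 454 and 514, apart but not called (-0.69 ± 0.32, adjusted p = 0.166). At 18 h the control arrays were 1121 and 335 and the NCFM arrays 387, 295 and 312, so that control replicate 2 lay among the NCFM arrays. The change there was -0.90 ± 0.36 (adjusted p = 0.0937), and leaving out control 18 h replicate 1 gave -0.03, while leaving out replicate 2 gave -1.77, called. Its other 2 probe sets were called at 18 h, at -1.15 and -1.17. The first had the same split, at 785 and 279 in control cells and 282, 179 and 185 in NCFM cells. The second did not, at 606 and 515 against 253, 234 and 258.

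Of the 7 lipogenic enzymes, 3, 6 and 4 were called lower at 4, 10 and 18 h and 0 were called higher. The shares of all genes called lower were 13.1%, 16.5% and 16.3%. Fasn, the fatty acid synthase, read 910 and 722 in control cells and 278, 311 and 283 in NCFM cells at 10 h, a 2.79-fold lower level (log2 change -1.48 ± 0.14, adjusted p = 2.86e-05). At 18 h it read 760 and 704 against 292, 254 and 271, 2.69-fold lower (-1.43 ± 0.14, adjusted p = 4.06e-05). No other gene of the 30 had a smaller adjusted p at 18 h. At 4 h the arrays overlapped, at 1016, 709 and 846 against 766, 623 and 644, with a change of -0.33 ± 0.13 (adjusted p = 0.103, and 0.0316 with the replicate block).

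Scd2, a stearoyl-CoA desaturase that makes oleate, had the largest change of all 30 genes, at 10 h. It read 6717, 4730 and 4489 in control cells and 2996, 2147 and 1845 in NCFM cells at 4 h, 2.29-fold lower, and 5514 and 4914 against 1111, 1161 and 935 at 10 h, 4.89-fold lower. The log2 changes were -1.20 ± 0.20 (adjusted p = 0.00139) and -2.29 ± 0.22 (adjusted p = 2.74e-05). By 18 h the arrays read 5515 and 3990 in control cells and 3137, 3947 and 3726 in NCFM cells, with no overlap but only a narrow gap, and a change of -0.39 ± 0.22 (adjusted p = 0.239). Scd1, its sister enzyme, read 602 and 595 against 377, 341 and 214 at 10 h (-0.99 ± 0.24, adjusted p = 0.00897), a call lost without control 10 h replicate 1. At 18 h it changed by -0.67 ± 0.24 (adjusted p = 0.0568, and 0.0456 with the replicate block). A dimmer probe set of Scd1 fell less at 10 h, at 288 and 303 against 234, 263 and 238. At 18 h its arrays overlapped, at 320 and 245 against 278, 303 and 282.

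Acly, which makes cytosolic acetyl-CoA from citrate and so feeds both routes, was lower at all times, by -0.41 ± 0.09, -0.82 ± 0.10 and -0.76 ± 0.10 (adjusted p = 0.00772, 0.000137 and 0.000255). Its arrays read 4013, 3682 and 3482 against 3065, 2563 and 2779 at 4 h and 3344 and 3613 against 2075, 1872 and 1950 at 10 h, without overlap. The 4 h call was lost with spike-in centring. Elovl6, which lengthens palmitate, changed by -0.37 ± 0.10, -0.81 ± 0.11 and -0.82 ± 0.11, at dim levels of 141 to 318 units. Leaving out NCFM replicate 2 or control replicate 2 or 3 ended its 4 h call, as did median and spike-in centring. Acaca, the acetyl-CoA carboxylase, changed by -0.06 ± 0.12, -0.49 ± 0.13 and -0.72 ± 0.13 and was called at 10 h and 18 h, though leaving out replicate 1 of either 10 h group ended the 10 h call.

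Acss2, which makes acetyl-CoA from acetate, had the opposite sign late. It read 282 and 440 in control cells and 365, 1195 and 1190 in NCFM cells at 18 h, so replicate 1 lay within the control range and the others well above. The log2 change of 1.19 ± 0.53 was not called (adjusted p = 0.132), but it was with the replicate block (1.06, adjusted p = 0.0121), and without NCFM 18 h replicate 1 (1.76, adjusted p = 0.0147). Arrays numbered 1 read lower for Acss2 in every group, as given above. At 10 h it read 234 and 494 against 275, 697 and 482, with a change of 0.41 ± 0.53.

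**Figure D5:**
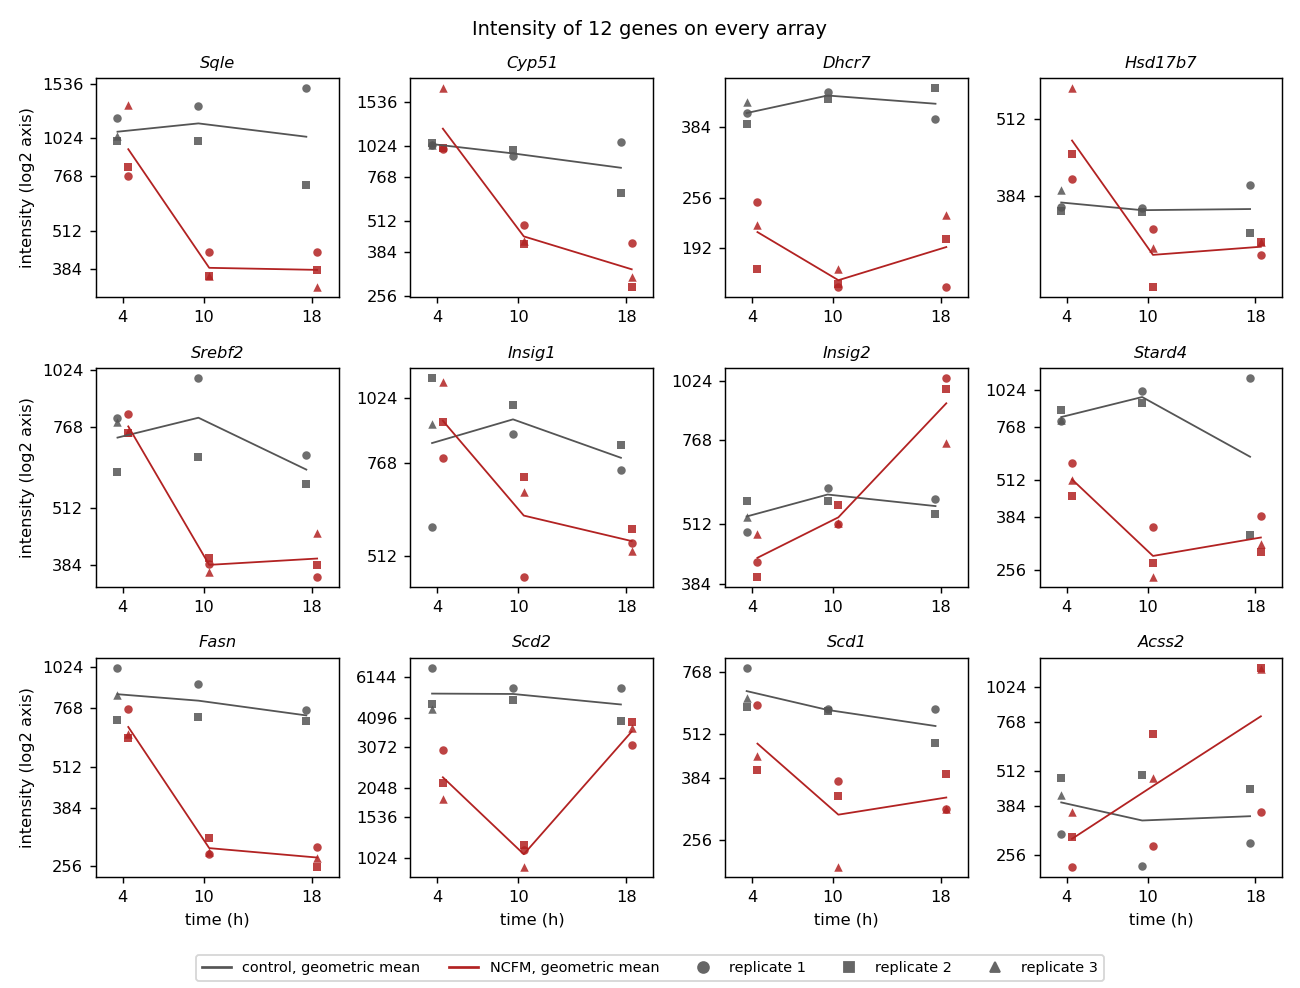
Intensity on a log2 axis against time in h for 12 genes, with one symbol per replicate number and lines through the geometric mean of control (grey) and NCFM (red) arrays, the groups drawn side by side at each time. NCFM values of Sqle, Cyp51, Srebf2 and Fasn drop between 4 h and 10 h, Scd2 drops to 935 to 1161 at 10 h and is back at 3137 to 3947 at 18 h, and Insig2 is highest in NCFM cells at 18 h.

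Time was also compared within NCFM cells and within control cells. From 4 h to 10 h, 14 of the 30 genes were called lower in NCFM cells, against 3.88% of all genes, and 0 higher, against 2.4% (1 at an unadjusted p under 0.05). Fasn fell by 1.22 on the log2 scale, Cyp51 by 1.43, Sc5d by 1.40 and Fdps by 1.33. Without NCFM 4 h replicate 3 the log2 changes were -1.25 for Fasn, -1.16 for Cyp51, -1.12 for Sc5d and -1.21 for Fdps, all still called, and only Nsdhl of the 14 was lost. From 10 h to 18 h only Insig2 (0.79 ± 0.11) and Scd2 (1.75 ± 0.20) were called, both higher, where 1.61% of all genes were called higher. From 4 h to 18 h, 16 were called lower and 2 higher, against 8.49% and 7.71% of all genes, and the lower ones included Idi1 (-1.08 ± 0.23, adjusted p = 0.00643) and Hsd17b7 (-0.57 ± 0.12, adjusted p = 0.00504), which were not called against control. In control cells, 0 of 30 genes were called by limma between any 2 times, where 0% of all genes were, and at an unadjusted p under 0.05 there were 0, 0 and 1.

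The change of the NCFM effect between times was tested in the same fit. Between 4 h and 10 h, the effect moved down for Srebf2 (-1.15 ± 0.22, adjusted p = 0.0394) and Fasn (-1.15 ± 0.19, adjusted p = 0.0275), 2 of 30 genes against 0.506% of all genes. Without NCFM 4 h replicate 3 the Srebf2 difference was -1.17 and not called (adjusted p = 0.0786). From 4 h to 18 h, it moved down for Cyp51 (-1.55 ± 0.33, adjusted p = 0.0263) and Fasn (-1.10 ± 0.19, adjusted p = 0.0107) and up for Insig2 (1.00 ± 0.17, adjusted p = 0.00857), 3 of 30 against 3.4% of all genes. With the replicate block the count from 4 h to 18 h was 11, and Fdps, Sqle, Tm7sf2, Hsd17b7, Sc5d, Srebf2, Acss2 and Scd2 were added. Leaving out control 18 h replicate 2 gave 9, and leaving out replicate 1 of NCFM cells at 4 h or at 18 h gave 5. For 10 h against 4 h the count was 0 without any one of control 4 h replicate 2 or 3, NCFM 10 h replicate 2 or 3 or control 10 h replicate 1, and 4 without either control 18 h array.

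Between 10 h and 18 h, 0 of 30 genes were called (3 at an unadjusted p under 0.05), against 0.0055% of all genes. The return of Scd2 was 1.90 ± 0.31 (adjusted p = 0.0843), and with the replicate block its adjusted p was 0.0164. It was also called without NCFM 18 h replicate 1. The comparisons at different times do not share control arrays, but those between effects share them with the comparisons they are built from.

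At 18 h, 1 control array weighed on the counts: without control 18 h replicate 1, 13 genes were called lower, and Hmgcs1, Mvk, Fdft1, Lss, Msmo1 and Srebf2 were lost. At 4 h the count was 4 without NCFM 4 h replicate 2, and Mvd, Srebf1 and Elovl6 were lost. Over all 31 alternatives, 2 of the 7 genes called lower at 4 h (Dhcr7 and Scd2), 17 of 22 at 10 h and 9 of 19 at 18 h stayed called. Elovl6 was too dim to be fitted in the alternative without dim genes, and it counted as lost there at each time without a test. The 9 at 18 h were Cyp51, Tm7sf2, Ebp, Sc5d, Dhcr7, Scap, Fasn, Acaca and Acly. Other probe sets of these genes, 22 of them bright, had the sign of the chosen one in 18, 21 and 20 cases at 4, 10 and 18 h.

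Of 19 further sterol genes measured singly, 3, 4 and 5 were called lower and 3, 4 and 2 higher at 4, 10 and 18 h, with median changes of -0.20, -0.09 and 0.05. Over all genes, 13.1%, 16.5% and 16.3% were called lower and 5.27%, 8.21% and 7.4% higher. Lbr, which doubles as a C-14 sterol reductase and a nuclear envelope protein, changed by -0.59 ± 0.26, -1.85 ± 0.29 and -2.39 ± 0.29, the last 2 called. Scarb1, the HDL receptor, changed by -0.53, -1.58 and -0.49 and was called at 4 h and 10 h. Tmem97, a sterol-responsive membrane protein, changed by -0.50, -0.91 and -0.73, all called, and Mbtps1, a protease that cuts SREBP, by -0.68 and -0.86 at 10 h and 18 h. Higher were Lrp8, a lipoprotein receptor family member, at 0.78, 1.14 and 1.48, and Cav1 of caveolae at 1.18, 1.59 and 1.55, both called at all times, and Rnf139, a sterol-sensing ubiquitin ligase, at 1.06 and 0.55 at 4 h and 10 h. Calls lost with 1 array of the comparison left out were those of Cav1 at each time, Scarb1 at 4 h (each of the 6 arrays) and Mbtps1 at 10 h (either control array, NCFM replicate 2 or 3) and 18 h (control replicate 2). For Cav1 the arrays were any control array and NCFM replicate 2 or 3 at 4 h, control replicate 1 and NCFM replicate 2 at 10 h, and either control array and NCFM replicate 2 at 18 h.

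Of 29 further fatty acid genes, 10, 13 and 10 were called lower and 1, 2 and 4 higher at 4, 10 and 18 h, with median changes of -0.14, -0.32 and -0.22, where 13.1%, 16.5% and 16.3% of all genes were called lower and 5.27%, 8.21% and 7.4% higher. Fads1, the delta-5 desaturase of polyunsaturated fatty acids, changed by -1.31 ± 0.21, -1.95 ± 0.23 and -1.43 ± 0.23, and Lpin1, a phosphatidate phosphatase, by -1.69, -1.87 and -1.25. Acsl3, a long-chain acyl-CoA synthetase, changed by -0.85, -1.30 and -1.26, and Mid1ip1, which activates acetyl-CoA carboxylase, by -0.67, -1.09 and -1.38. Tecr and Elovl1 of fatty acid elongation were also called at all times. Dgat2, which makes triglyceride, rose by 0.70 and 0.86 at 10 h and 18 h, and Me1, a source of NADPH, by 0.63 at 18 h. The 4 h call of Mid1ip1 was lost without NCFM replicate 1 or 2 or control replicate 2 or 3, that of Tecr without NCFM replicate 2 or 3 or any control array, and the 10 h call of Dgat2 without control replicate 1.

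Of 9 genes of oxysterol and efflux biology, 1, 2 and 2 were called higher and 0, 1 and 2 lower, where 5.27%, 8.21% and 7.4% of all genes were called higher and 13.1%, 16.5% and 16.3% lower. Ch25h, which makes the oxysterol 25-hydroxycholesterol, changed by 4.58 ± 0.29, 4.42 ± 0.33 and 2.64 ± 0.33 (adjusted p = 1.81e-06, 5.21e-06 and 0.000165). Nr1h3, the oxysterol receptor LXR alpha, changed by 0.83 ± 0.18 and 0.63 ± 0.18 at 10 h and 18 h, and Abca1, an LXR target in cholesterol efflux, by 0.03 ± 0.61, 0.34 ± 0.69 and -0.16 ± 0.69, not called. Lpcat3, a phospholipid acyltransferase and LXR target, changed by -0.83 and -0.68 at 10 h and 18 h, and Cyp27a1, a sterol hydroxylase, by -1.52 at 18 h. At 18 h the call of Cyp27a1 was lost without control replicate 2, and that of Nr1h3 without control replicate 1 or NCFM replicate 2 or 3.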

How the data were processed

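RNA from 16 samples of bone marrow-derived dendritic cells was biotin-labelled and read on one-colour arrays, per the labels' protocols. The deposited values are linear intensity per probe set, in whole numbers, and the authors' normalization is not given in the sources read here. Since array medians agreed (162 to 167), the deposited values were taken as they are, and log2 of the deposited intensity was used for all tests. Of 45101 probe sets, 34945 named 1 gene in the platform annotation, 932 several and 9160 none, and 64 were controls. The probe set with the highest mean stood for each of 18193 genes. The number of arrays limits the precision.

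A linear model with 1 mean per group over all 16 arrays (10 residual degrees of freedom) was fitted with limma 3.58.1 in R 4.3.3, with p-values adjusted by Benjamini-Hochberg over all genes and calls at an adjusted p under 0.05, and the procedure was tested on simulated data. Tables and figures used Python 3.11.15, pandas 2.3.3 and matplotlib 3.10.9. Deviations from group means of arrays with the same replicate number correlated at 0.19 to 0.75 in 36 pairs (median 0.42). In 70 pairs of different numbers they correlated at -0.75 to 0.73 (median -0.32). Deviations cancel within a group, so the negative values follow in part from the positive ones. The contrast cannot show on its own that arrays 2 and 3 are each paired by number. That the labels' numbers pair arrays was therefore an assumption, and a fit with the replicate block was an alternative. Other alternatives covered scaling, background, probe set choice, filtering, variance, weights and each array left out, and 2 (arrays 2 and 3 only, both doubted arrays left out) were chosen after seeing the data.

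Every one of the 30 genes could be named. Array values are given for genes with the largest changes, with a direction unlike their role or with disagreeing probe sets, and genes of other lists are named when called or defining. The genes and lists were chosen with earlier results of these data known.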

Additional observations from a re-analysis of the deposited data

Results flagged for a closer look

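The NCFM effect differed between times, by the test of the difference itself in limma, for 4 genes. Between 4 h and 10 h, the effect on Srebf2 moved by -1.15 ± 0.22 on the log2 scale (SE, adjusted p = 0.0394) and that on Fasn by -1.15 ± 0.19 (adjusted p = 0.0275). With 1 of the 16 arrays left out at a time, the Srebf2 difference was called in 5 cases of 16, from -1.44 to -0.86, and the Fasn difference in 11, from -1.32 to -0.99. Between 4 h and 18 h, the effect on Cyp51 moved by -1.55 ± 0.33 (adjusted p = 0.0263), that on Insig2 by 1.00 ± 0.17 (adjusted p = 0.00857) and that on Fasn by -1.10 ± 0.19 (adjusted p = 0.0107). Insig2 and Fasn stayed called in 16 of 16 cases, and Cyp51 in 10, with an adjusted p of 0.1 without control 18 h replicate 1.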

How the results depend on the processing

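Of 2415 values under other settings, 2171 kept direction and side of the threshold, 161 lost a call, 55 gained one and 28 changed sign. Of 2736 values with 1 array left out, the numbers were 2520, 172, 26 and 18. No gene of the 30 that was called changed sign. The cause of these shifts was not tested. The count lower at 4 h was 4 at an adjusted p under 0.01, 14 with array weights, 2 with spike-in centring and 4 with median centring. Genes higher at 4 h numbered 2 with spike-in centring and 1 with array weights, every probe set, median centring, arrays 2 and 3 only, quantile normalization or the replicate block. Genes higher numbered 2 at 10 h with every probe set, and 2 at 18 h with array weights, arrays 2 and 3 only or the replicate block. Spike-in centring gave 26 genes in NCFM cells from 4 h to 10 h, 4 from 10 h to 18 h, and effect differences for 25 (10 h minus 4 h) and 10 (18 h minus 4 h), and quantile normalization gave 1 for 10 h minus 4 h. The replicate block gave 11 for 18 h minus 4 h and 1 for 18 h minus 10 h, added Sc5d for 10 h minus 4 h, Msmo1, Ebp, Insig1, Scap and Scd1 in NCFM cells from 4 h to 10 h, and Lss, Msmo1 and Acss2 from 4 h to 18 h. Its added calls against control stand beside their genes, and it ended no call of the 30 genes.

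With 1 array left out, genes lower numbered 4 to 10 at 4 h, 19 to 23 at 10 h and 13 to 20 at 18 h, and genes higher 0 to 1 at 4 h and 1 to 2 at 18 h. NCFM cells gave 12 to 16 from 4 h to 10 h and 14 to 20 from 4 h to 18 h. Effect differences numbered 0 to 4 (10 h minus 4 h), 0 to 1 (18 h minus 10 h) and 2 to 9 (18 h minus 4 h), and control cells gave 0 to 1 for both comparisons with 18 h, the 1 being Stard4 without control 18 h replicate 1.

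Uncalled log2 changes that changed sign were as follows. With spike-in centring at 4 h, Acaca was 0.13, Fdft1 0.13, Hmgcs1 0.078, Lss 0.0022, Sc5d 0.16 and Sqle 0.0031. With median centring, Acaca was 0.019, Fdft1 0.022 and Sc5d 0.051 at 4 h and Idi1 0.063 at 10 h. With quantile normalization, Acaca was 0.080, Fdft1 0.042 and Sc5d 0.011 at 4 h, Insig2 0.061 at 10 h and Srebf1 0.075 at 18 h. With array weights, Acaca was 0.0095 and Insig1 -0.058 at 4 h. With the mean of probe sets, Fdft1 was 0.092 at 4 h and Idi1 0.012 at 10 h. With arrays 2 and 3 only, Hmgcs1 was 0.00012, Insig1 -0.0060, Sc5d 0.071 and Sqle 0.026 at 4 h, Pmvk -0.0092 at 10 h and -0.095 at 18 h, and Srebf1 0.040 at 18 h. Without both doubted arrays, Acaca was 0.011 and Cyp51 -0.062 at 4 h. With 1 array left out, the 4 h ranges were -0.17 to 0.044 for Acaca, -0.062 to 0.34 for Cyp51, -0.24 to 0.083 for Fdft1, -0.31 to 0.077 for Hmgcs1, -0.12 to 0.34 for Insig1, -0.015 to 0.091 for Pmvk, -0.31 to 0.20 for Sc5d and -0.044 to 0.15 for Srebf2. Those at 10 h were -0.13 to 0.95 for Acss2 and -0.23 to 0.11 for Idi1, and that of Srebf1 at 18 h was -0.23 to 0.058.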
